A study of Mus musculus with 6 samples.

Results

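The carbonic anhydrases are zinc enzymes that turn carbon dioxide and water into bicarbonate and a proton. In the intestinal epithelium they feed the exchangers that move bicarbonate, chloride, sodium and protons across the apical and basolateral membranes, and they help to hold cellular and luminal pH. Isoforms differ in where they act: in the cytosol, in mitochondria, at the cell surface or, for a few related proteins that lack the enzyme activity, as binding partners of other proteins. The 9 genes described here are those rows of the count table with the symbol Car1, Car2, Car4, Car5b, Car7, Car8, Car9, Car12 or Car13, out of 21534 rows in all. All 9 were found, 1 row each, and 8 passed the filter on low counts, the exception being Car4. The table also holds 7 other genes of the family (Car3, Car5a, Car6, Car10, Car11, Car14 and Car15), which are given at the end for completeness.

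The samples were bulk RNA libraries from stem cell-enriched ileal organoids of wild-type C57Bl/6 mice, which are epithelial cultures of stem cells and their descendants. Both groups had first been grown for 96 hours with 10 µM CHIR99021, a GSK3 inhibitor that activates Wnt signalling, so the controls carry that treatment too. Over the next 24 hours 3 cultures received 10 µM retinoic acid and 3 received the DMSO vehicle. The labels do not say whether the libraries of a group came from separate mice, so p-values here rest on how far these 6 libraries scatter, and that scatter may be technical. In such bulk samples fewer cells of a type and less RNA per cell cannot be told apart.

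Total counts ranged from 14919144 to 21833846 reads per library. The unit CPM used for levels is the count divided by the library size after TMM scaling, times 1000000. Where 3 values are given for a group they are in the order of the library numbers 1, 2 and 3. On the second principal component both libraries numbered 3 lay away from the remaining 4. Markers of intestinal epithelium (Epcam, Vil1, Cdh1, Krt8 and Cdx2) summed to 5640 to 5751 CPM with vehicle and 5799 to 5906 CPM with retinoic acid. Fibroblast markers summed to at most 1.78 CPM in any library. Of 4 crypt stem cell markers, Olfm4, Smoc2 and Lgr5 were lower with retinoic acid, and the 4 summed to 384.5 to 427.6 CPM with vehicle and 234.8 to 244.9 CPM with retinoic acid. Of 9 enterocyte markers, Fabp1 and Fabp2 were higher and Alpi was lower, and the 9 summed to 967 to 1128 CPM and 795 to 1110 CPM. Of 5 goblet cell markers Spdef was lower, with sums of 4411 to 4903 CPM with vehicle and 4029 to 4447 CPM with retinoic acid. Of 4 Paneth cell markers Mmp7 was higher and Ang4 lower, with sums of 4969 to 5394 CPM and 4505 to 4816 CPM. Immune markers summed to at most 25.6 CPM and endothelial markers to at most 2.83 CPM in any library. Higher and lower here are edgeR calls, defined below, and over all tested rows 5.37% were called higher and 4.09% lower. The part of these markers in the results below was not tested.

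Catalysis needs a zinc ion held by 3 histidines. To show which members keep them, the coding stretch around the first 2 of these histidines is printed below, read from GENCODE M21 transcripts (GRCm38, the same assembly as mm10), 5′ to 3′ on the coding strand. Capitals mark the codons aligned to positions 94 and 96 of Car2, counted from 1 at its first methionine. Each stretch lies in 1 coding exon.
Car2: ttgatccagtttCACtttCACtggggctca
Car1: ctcactcagttcCATtttCACtggggcaac
Car13: ttgcggcagttcCATttgCACtgggggtca
Car7: ctcaagcagctcCACttcCACtggggcaag
Car5b: ctgaagcagtttCATtttCATtggggagcc
Car9: gccttgcagttgCATctaCACtggggaact
Car12: gcagagcagctgCACttgCACtgggggaac
Car4: gctgtacagttgCACctgCACtggtcaaat
Car8: ctgtatgaagttAGAtttCACtggggaaga

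The Car2 stretch is chr3:14895057-14895086 (plus strand, exon 3), that of Car12 is chr9:66747635-66747664 (plus strand, exon 4), that of Car9 is chr4:43508952-43508981 (plus strand, exon 4) and that of Car8 is chr4:8221604-8221633 (minus strand, exon 3). All 3 histidines, at positions 94, 96 and 119 of Car2, were aligned to histidines in 8 of the 9 members. The exception was Car8, which carries H94R (the Car2 residue first, then the residue of Car8) and keeps the other 2. Car8 is the carbonic anhydrase-related protein VIII, which lacks the enzyme activity and binds the IP3 receptor ITPR1. In a global alignment, the share of aligned residues identical to Car2 was 58.3% for Car1, 57.4% for Car13, 55% for Car7, 51.5% for Car5b, 43.3% for Car8, 38.4% for Car9, 37.5% for Car12 and 36.6% for Car4. The cytosolic enzymes Car1, Car13 and Car7 were thus the most like Car2 by sequence, and the surface enzymes Car9, Car12 and Car4 the least.

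With retinoic acid 4 of the 8 tested members were higher, namely Car12, Car2, Car8 and Car9, and the other 4 were not called. A call means that the quasi-likelihood test of edgeR gave a p below 0.05 after Benjamini-Hochberg adjustment over all tested rows. Over all 13700 tested rows 5.37% were called higher and 4.09% lower. The median log2 fold change of the 8 was 0.43, against −0.00795 over all tested rows. Of the 6 members over 10 CPM on average, Car1 and Car13 were not called. Every retinoic acid library lay above every vehicle library for Car12, Car2 and Car8, and this held for 12.9% of all tested rows, with 12.6% in the other direction. With an edgeR fit that takes the library number as a block, Car1 was called higher as well, so that 5 members were, and that fit called more of all tested rows (8.93% higher and 7.68% lower).

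**Figure D1:**
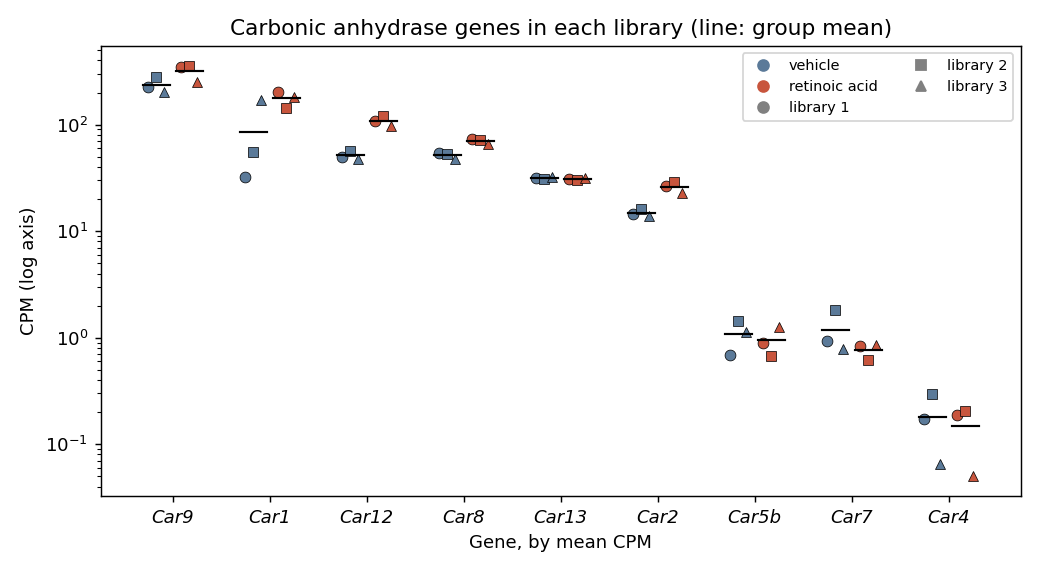
CPM of the 9 carbonic anhydrase genes in each library, on a log axis, with vehicle libraries in blue, retinoic acid libraries in red, a marker shape for each library number and a line at each group mean. Car12, Car2 and Car8 have no overlap between groups, the vehicle libraries of Car1 run from 32 to 168 CPM, and Car5b, Car7 and Car4 lie near or below 1 CPM.

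Among the enzymes of the cell surface, Car12 showed the largest called change. Car12 is a membrane-spanning enzyme with its active site outside the cell, found on the basolateral side of many epithelia (ENSMUSG00000032373, mm10 chr9:66713686-66766845, plus strand). Its level was 49.6, 56.4 and 47.8 CPM with vehicle, and 109, 121 and 96.2 CPM with retinoic acid. The lowest retinoic acid library was thus 1.70 times the highest vehicle library. The fold change was 2.12 (95% interval 1.85 to 2.42), a log2 fold change of 1.08 with a standard error (SE) of 0.09 and an adjusted p of 2.65e-06 (edgeR). In the authors' deposited table its log2 fold change is 1.09 with an FDR of 9.31e-26. The call of Car12 held in each of the 6 fits that left out 1 library, with a log2 fold change between 1.00 and 1.16.

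Car9, carbonic anhydrase IX, is also a membrane-spanning enzyme that faces outward, best known as a target of the hypoxia-inducible factor HIF and as a gene of the gastric and intestinal epithelium (ENSMUSG00000028463, mm10 chr4:43506966-43513729, plus strand). It had the highest CPM of the 9 genes in all 6 libraries, with 225, 282 and 204 CPM with vehicle, and 350, 352 and 253 CPM with retinoic acid. The groups overlapped, since retinoic acid library 3 lay below vehicle library 2. The log2 fold change was 0.42 (SE 0.12; 1.34-fold, 95% interval 1.12 to 1.61), and its adjusted p of 0.0442 in edgeR's test lay just under the threshold. The call was lost with DESeq2 (adjusted p = 0.21), with limma-voom (0.0517) and without vehicle library 1 or 3 or retinoic acid library 1 or 2 (0.147 to 0.179). With the library number as a block it was 7.19e-05, at the same log2 fold change of 0.42. The authors' deposited table gives Car9 an FDR of 0.327.

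**Figure D2:**
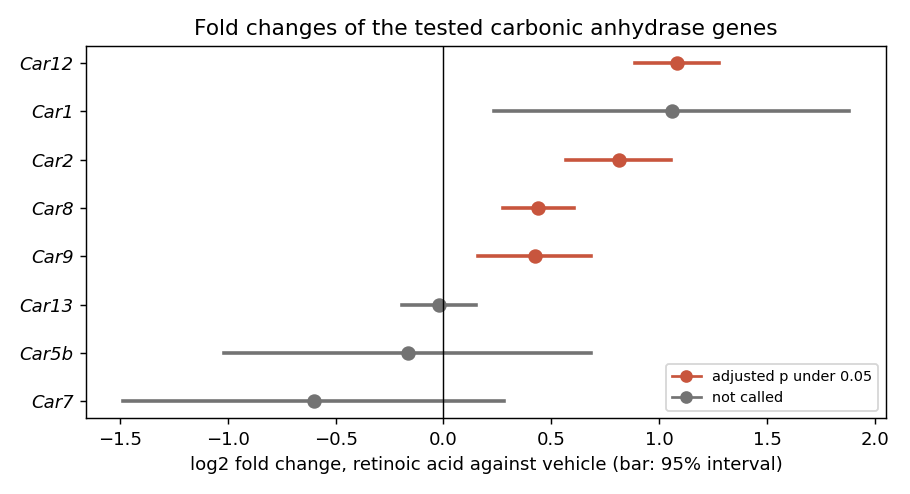
Log2 fold changes of the 8 tested members, retinoic acid against vehicle, with 95% intervals from edgeR's test, and red for an adjusted p under 0.05. Car12, Car2, Car8 and Car9 are called, Car1 has a like estimate to Car12 (1.06 and 1.08) with a far wider interval, and Car13 sits at −0.02.

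Car9 has an annotated antisense gene, Gm12454, on the minus strand at mm10 chr4:43504428-43508747. The exons of the pair share 214 bases, which is 9.3% of the exon bases of Car9 and 19.8% of those of Gm12454. Gm12454 was counted at 32.0, 39.3 and 29.2 CPM with vehicle, and at 46.5, 49.8 and 35.2 CPM with retinoic acid. It thus stood at between 13.3% and 14.3% of Car9 in every library. Of 9777 other tested genes with at least 10 CPM on average, Gm12454 had the highest Pearson correlation with Car9 over the 6 libraries (0.995 on log2 CPM), followed by Stk24 (0.995) and Stbd1 (0.991). These are descriptions over 6 points that share the libraries and the treatment. Whether the authors' counting used strand is not given in the sources used here, and if it did not, reads of Car9 and of its antisense partner cannot be told apart in the shared bases; this was not tested.

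**Figure D3:**
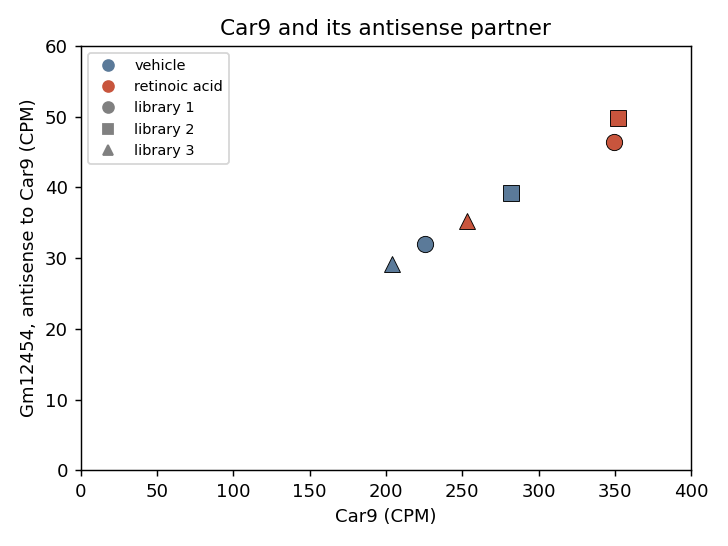
CPM of Gm12454 against CPM of Car9 in each of the 6 libraries, both axes from 0, with colours for the groups and marker shapes for library numbers. The points lie close to a line through the origin, with Gm12454 at 13.3% to 14.3% of Car9.

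The part of the Car9 promoter with a hypoxia response element core is shown because Car9 is known for this control. RefSeq promoter entries (GRCm38.p6, from 250 bases before to 50 bases after a start) matched 5 of the 9 members, namely Car4, Car5b, Car7 (3 starts), Car9 and Car12. The 30 bases just before the RefSeq start of Car9 (chr4:43506996-43507025, plus strand) follow, with the word ACGTG, here on the minus strand and so read as its reverse complement, in capitals.
Car9: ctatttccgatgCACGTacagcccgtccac

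The word begins 18 bases before that start. Both the word and the printed window lie inside the Car9 gene as placed above, which begins at chr4:43506966. ACGTG, searched on both strands, was in 2 of the 7 promoter entries of members (Car9 and Car4) and in 19.6% of all 32851 promoter entries. AGGTCA, a core word of many nuclear receptor sites, also searched on both strands, was in 1 of the 7, an entry of Car7, and in 16.3% of all entries. The Car12 entry held neither word. A match to a short word is a description of the sequence and not a binding site.

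Car4, a surface enzyme held by a lipid anchor and a marker of colonic and some small intestinal enterocytes (ENSMUSG00000000805, mm10 chr11:84957786-84966044), was hardly detected. It had 3, 5 and 1 counts with vehicle, and 4, 3 and 1 with retinoic acid, which were too few to be tested.

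Of the cytosolic enzymes, Car2 rose and Car13 kept its level within narrow bounds. Car2 is the fast, widely expressed isoform that supplies bicarbonate and protons to apical exchangers of the gut (ENSMUSG00000027562, mm10 chr3:14886426-14900769, plus strand). It stood at 14.6, 16.2 and 13.8 CPM with vehicle, and at 26.8, 28.9 and 22.7 CPM with retinoic acid. No retinoic acid library came near the vehicle range, the lowest being 1.41 times the highest vehicle library. The fold change was 1.76 (95% interval 1.48 to 2.08), with a log2 fold change of 0.81 (SE 0.11) and an adjusted p of 0.000377 in edgeR's test. The call of Car2 held in each of the 6 fits that left out 1 library (log2 fold change 0.74 to 0.90).

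Car13, a cytosolic isoform also found in the gut (ENSMUSG00000027555, mm10 chr3:14641727-14663002, plus strand), had 31.4, 30.6 and 31.9 CPM with vehicle, and 30.7, 30.4 and 31.4 CPM with retinoic acid. The 6 libraries thus lay between 30.4 and 31.9 CPM, and the groups overlapped. Its fold change was 0.985 with a 95% interval of 0.875 to 1.11 (adjusted p = 0.92, edgeR), an interval that does not reach the fold changes of Car12, Car2 or Car8.

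Car1 was the least even member among the abundant ones. It is a slower cytosolic isoform, abundant in red cells and in the epithelium of the large intestine (ENSMUSG00000027556, mm10 chr3:14766217-14778459, minus strand). Its level was 32.0, 55.6 and 168 CPM with vehicle, and 203, 144 and 182 CPM with retinoic acid. Vehicle library 3 lay inside the retinoic acid range, while the other 2 vehicle libraries lay far below it. The coefficient of variation was 85.4% with vehicle and 17.1% with retinoic acid, where the fitted biological coefficient of variation over all genes was 7.81%. The log2 fold change was 1.06 (SE 0.38; 2.08-fold, 95% interval 1.18 to 3.68) and was not called (adjusted p = 0.11, edgeR). Without vehicle library 3 the log2 fold change was 2.01 with an adjusted p of 5.44e-06, and without library 3 of both groups it was 1.99 (1.16e-08). Without retinoic acid library 3 Car1 was also called (1.04, adjusted p = 0.0419), and with the library number as a block it was 1.29 with an adjusted p of 0.00319. In the other 4 fits that left out 1 library the log2 fold change ran from 0.66 to 1.19 and Car1 was not called (adjusted p = 0.132 to 0.357, edgeR), nor did DESeq2 call it (0.464). The authors' deposited table gives Car1 an FDR of 0.674. The ratio of the same-numbered libraries on the log2 scale was 2.67 for number 1, 1.37 for number 2 and 0.12 for number 3. The genes with at least 10 CPM most like Car1 over the 6 libraries were Dedd (Pearson correlation 0.998), Trmt112 (0.996) and Anks4b (0.994), which again is a description over 6 points with shared libraries. These 3 genes varied far less in size, with log2 fold changes of 0.10, 0.14 and 0.08.

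Car1, Car2, Car13 and Car3 are neighbours on chromosome 3, in the order Car13, Car1, Car3, Car2 over 259 kb. Of these 4 Car2 was called higher and Car1 and Car13 were not, and the fold interval of Car1 contains the 1.76-fold of Car2. Car3 had 0 counts over the vehicle libraries and 1 over the retinoic acid libraries. Car7, a cytosolic isoform mainly of brain and muscle (ENSMUSG00000031883, mm10 chr8:104534700-104550343), lay between 0.610 and 1.84 CPM. It had a log2 fold change of −0.60 (SE 0.41) and was not called (adjusted p = 0.457, edgeR).

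Car5b is 1 of the family's mitochondrial isoforms, which supply bicarbonate to carboxylating enzymes (ENSMUSG00000031373, mm10 chrX:163976822-164027997, minus strand). It was counted at 0.694, 1.42 and 1.12 CPM with vehicle, and 0.891, 0.678 and 1.26 CPM with retinoic acid. The groups overlapped, with a log2 fold change of −0.17 (SE 0.40, adjusted p = 0.864, edgeR). Its 95% interval in fold, from 0.494 to 1.61, includes both 1 and the 1.36-fold change of Car8, so a change of that size is neither shown nor excluded.

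Car8, the member without the first zinc-binding histidine (ENSMUSG00000041261, mm10 chr4:8143367-8239041, minus strand), rose by a small and even amount. It had 54.1, 52.7 and 47.9 CPM with vehicle, and 73.5, 71.5 and 65.0 CPM with retinoic acid. The groups did not overlap, and same-numbered libraries gave log2 ratios of 0.44, 0.44 and 0.44. The fold change was 1.36 (95% interval 1.21 to 1.52), with a log2 fold change of 0.44 (SE 0.08) and an adjusted p of 0.00211 in edgeR's test. The call of Car8 held in each of the 6 fits that left out 1 library (log2 fold change 0.39 to 0.49). Its partner gene Itpr1 had a log2 fold change of 0.33 and was not called (adjusted p = 0.147, edgeR). Among the 3 IP3 receptor genes 0 were called by edgeR, DESeq2 or limma-voom, with 1 higher at an unadjusted p under 0.05. Of the 3, 1 was called higher with the library number as a block or without retinoic acid library 3. Over all tested rows 5.37% were called higher and 4.09% lower by edgeR without the block. These shares were 8.93% and 7.68% with the block, and 7.02% and 5.65% without retinoic acid library 3.

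Levels of different genes are compared per kb of exon (all exons of a gene in GENCODE M21). With vehicle the order was Car9 at 103 ± 17.5, Car1 at 68.4 ± 58.4, Car13 at 13.6 ± 0.286, Car8 at 13.4 ± 0.843, Car12 at 6.75 ± 0.598, Car2 at 6.12 ± 0.507, Car7 at 0.325 ± 0.157, Car5b at 0.170 ± 0.0575 and Car4 at 0.0908 ± 0.0586 CPM per kb (mean ± SD, n = 3). Car9 and Car1, Car13 and Car8, Car12 and Car2, Car7 and Car5b, and Car5b and Car4 overlapped between libraries. Within every vehicle library, Car12 lay above Car2, Car7 above Car5b and Car5b above Car4, though Car7, Car5b and Car4 had few counts. The order of Car9 and Car1, and that of Car13 and Car8, changed from library to library and is not resolved. With retinoic acid the levels were 141 ± 24.2 for Car1, 138 ± 24.5 for Car9, 18.2 ± 1.14 for Car8, 14.3 ± 1.67 for Car12, 13.4 ± 0.209 for Car13 and 10.8 ± 1.29 CPM per kb for Car2. Car8 now lay above Car13 in every library, while Car12 overlapped with Car13 and Car1 with Car9, so the order within these 2 pairs is not resolved either.

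Summed over the 9 genes without TMM scaling, counts per 1000000 reads were 418 to 526 in the vehicle libraries. They were 641 to 776 in the retinoic acid libraries, a ratio of means of 1.48 (1.545 with TMM scaling). Car9 gave 39.6% to 56.7% of this sum with vehicle and 38.7% to 46.9% with retinoic acid. Car12 gave 9.27% to 12.1% with vehicle and 13.7% to 16.2% with retinoic acid, and the share of Car13 went from 6.16% to 7.69% down to 3.87% to 4.81%. The share of Car1 ran from 7.83% to 32.6% with vehicle, with the highest share in vehicle library 3. With retinoic acid the share of Car1 was 19.2% to 27.9%. Without Car9 the ratio of the sums, again without TMM scaling, was 1.68. That ratio still includes Car1, which was uneven with vehicle and was not called, so it is not a measure of an even rise.

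**Figure D4:**
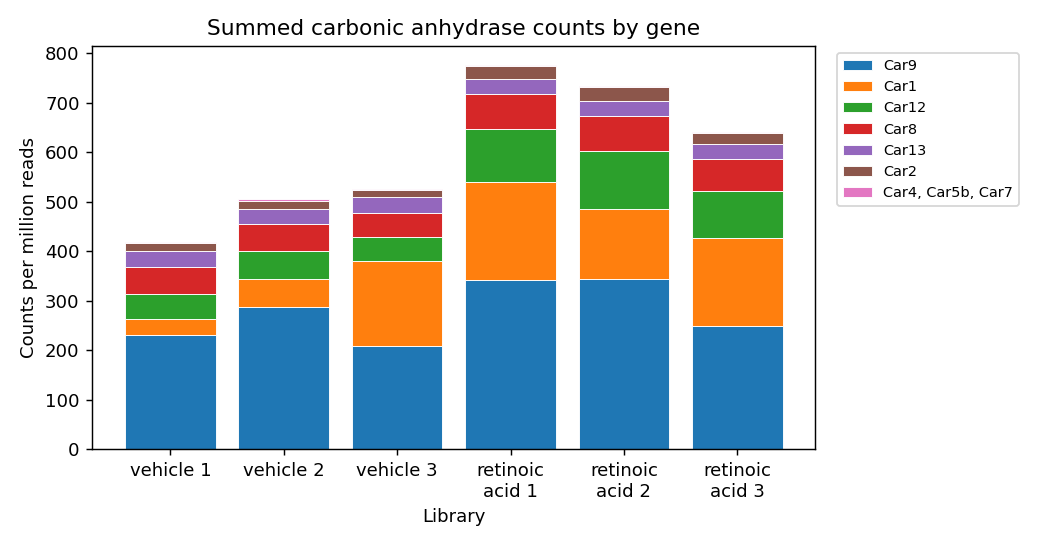
Summed counts of the 9 carbonic anhydrase genes per 1000000 reads in each of the 6 libraries, stacked by gene. The total is 418 to 526 with vehicle and 641 to 776 with retinoic acid, and the Car1 segment is small in vehicle libraries 1 and 2 and large in vehicle library 3.

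The 7 other genes of the family were low. Car14, a membrane-spanning isoform, was the highest of them at 7.42 ± 1.14 and 7.90 ± 0.713 CPM (SD, n = 3). Of the 7, Car6, Car11, Car14 and Car15 were tested and 0 were called by edgeR, DESeq2 or limma-voom. The secreted isoform gene Car6 alone had an unadjusted p under 0.05 in edgeR, at 1.01 ± 0.463 and 0.486 ± 0.115 CPM (log2 fold change −1.05, adjusted p = 0.197). Car10 and Car11, which like Car8 are related proteins without the enzyme activity, lack more of the zinc-binding histidines: Car10 carries H94R and H119Q, and Car11 carries H94R, H96L and H119Q.

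Genes that use or carry the products of the reaction were read from lists of transporters and carboxylases. Of 17 tested bicarbonate and proton transporter genes 3 were higher and 1 was lower, with a median log2 fold change of 0.03 (edgeR). Beside this, 5.37% of all tested rows were higher and 4.09% lower, with a median of −0.00795. Slc26a3, the apical chloride-bicarbonate exchanger of the ileum and colon, rose 1.84-fold from 13.4 ± 3.21 to 24.5 ± 3.34 CPM (SD, n = 3). Slc9a2, a sodium-proton exchanger, rose 1.26-fold, and the lactate and proton exporter gene Slc16a3 rose 1.30-fold. Cftr, the apical chloride and bicarbonate channel of crypts, went from 164 ± 14.3 down to 115 ± 4.34 CPM, a log2 fold change of −0.52 (SE 0.07). Slc26a6, a second apical exchanger, had 6.78 ± 0.318 and 6.21 ± 1.77 CPM and was not called (adjusted p = 0.791, edgeR).

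Slc9a3, the main apical sodium-proton exchanger of enterocytes, had 2.88 ± 0.617 and 1.23 ± 0.728 CPM (adjusted p = 0.0673, edgeR), and Slc4a4, the basolateral sodium-bicarbonate cotransporter, had 136 ± 21.2 and 165 ± 33.5 CPM (adjusted p = 0.254). With the library number as a block, Slc9a3 was called lower (adjusted p = 0.00839) and Slc4a4 higher (0.00133), and in all 5 transporter genes were higher and 3 lower, beside 8.93% and 7.68% of all tested rows in that fit. Without retinoic acid library 3 the numbers were also 5 and 3, beside 7.02% and 5.65% of all tested rows. The call of Slc16a3 was lost in 3 of the 6 fits that left out 1 library (number 1 of either group, or number 2 of the retinoic acid group), with an adjusted p of at most 0.0894.

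Of 9 carboxylase genes, whose enzymes take bicarbonate as a substrate, 3 were higher and the other 6 were not called (edgeR). Among all tested rows 5.37% were higher and 4.09% lower. Acacb, an acetyl-CoA carboxylase gene, rose from 0.660 ± 0.357 to 5.19 ± 1.17 CPM (SD, n = 3), a fold that is uncertain because its vehicle level is under 1 CPM. Pcx, the pyruvate carboxylase gene, rose 1.53-fold from 28.1 ± 1.71 to 43.1 ± 5.94 CPM. Cps1, carbamoyl phosphate synthetase of the mitochondrion, rose 1.43-fold, and its call was lost in 5 of the 6 fits that left out 1 library (adjusted p up to 0.101).

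Of 14 targets of hypoxia-inducible factors, the group to which Car9 belongs, 4 were higher and the other 10 were not called, with a median log2 fold change of 0.21 (edgeR). Over all tested rows in this fit 5.37% were higher and 4.09% lower, with a median of −0.00795. Vegfa, the vascular growth factor gene, rose by a log2 fold change of 0.59, from 793 ± 1.61 to 1190 ± 146 CPM (SD, n = 3). Adm, the adrenomedullin gene, rose 2.69-fold with 82.6, 90.8 and 39.6 CPM with retinoic acid against 22.4 to 29.3 CPM with vehicle. The hexokinase gene Hk2 rose 1.29-fold and the glucose transporter gene Slc2a1 rose 1.24-fold, the latter losing its call in 4 of the 6 fits that left out 1 library (adjusted p up to 0.0944). Retinoic acid library 3 was the lowest of its group for Car9, Car12, Car2 and Car8 as well as for these 4 genes. Vehicle library 3 was also the lowest of its group for Car9, Car12, Car2, Car8, Adm and Hk2, but not for Vegfa or Slc2a1. The number of higher targets was 12 without retinoic acid library 3, where 7.02% of all tested rows were higher. It was 10 without library 3 of both groups, where 6.68% of all rows were higher and 5.32% lower, and 9 with the library number as a block, where 8.93% were higher.

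**Figure D5:**
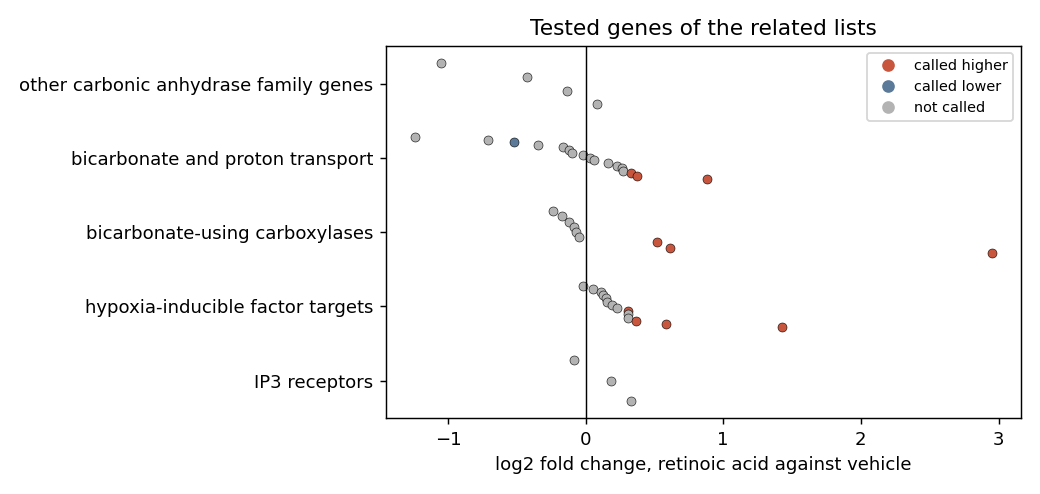
Log2 fold changes of the tested genes of the other carbonic anhydrase genes and the related lists, retinoic acid against vehicle, 1 point per gene, coloured red where called higher, blue where called lower and grey where not called by edgeR. Cftr is the called decrease among the transporters, and Acacb at 2.95 is the largest increase shown.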

How the data were processed

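Directional polyA libraries were sequenced, per the labels, and the submitters' processing notes name mm10 as the build. The deposited table gives raw read counts per gene for 6 libraries and the authors' p-value, FDR and log2 fold change columns, headed as DESeq statistics, per the file headers. Aligner, annotation and use of strand in counting were not given in the sources used here. Members (9) and all lists were chosen with earlier results of these data known, and the named genes are the members, the other family genes, up to 4 called genes per list with the smallest p, 5 fixed transporters and the 3 genes most like Car9 and Car1.

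Counts were fitted with edgeR 4.0.16 in R 4.3.3 (filterByExpr, TMM, glmQLFit and glmQLFTest, treatment as the only term), and p-values were adjusted over 13700 rows. SE is the log2 fold change over the square root of F. Libraries with the same number deviated together from their group means (correlations 0.166, 0.124 and 0.346), so a fit with the number as a block is given where it changes a call. Unlike-numbered libraries 1 and 2 correlated nearly as much (0.088 and 0.092). A library 3 with a library 1 or 2 of the other group gave −0.226 to −0.178, so mainly the libraries numbered 3 stood apart. Pairs of libraries within a group differed by more than counting noise (chi-square per row 3.96 to 10.5). Coding sequences were aligned with Biopython 1.88 (BLOSUM62). Some marker lists are not reported here. Alternatives used DESeq2 1.42.0 and limma-voom (limma 3.58.1), other filters and scaling, and each library left out; leaving out library 3 of both groups, and the block for the lists, were added after seeing the data.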

Additional observations from a re-analysis of the deposited data

How the results depend on the processing

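The count of 4 higher members was 3 to 5 in every alternative run, but the members behind it changed. Car12, Car2 and Car8 were called higher in every run, while Car9 and Car1 were called only in some. With limma-voom, and without vehicle library 3, the 4 held Car1 and not Car9. The count of 0 lower members did not change (0 by DESeq2 and limma-voom, and 0 at an unadjusted p under 0.05 in edgeR). Over all rows, the replicate block gave 1224 higher and 1052 lower genes, against 736 and 560 without it, and leaving out 1 library gave 443 to 978 and 289 to 787. Without library 3 of both groups they were 922 and 734. With the replicate block 5 transporter genes were higher and 3 lower, 9 hypoxia-inducible factor targets were higher and 1 IP3 receptor gene was higher. It changed the calls of Car1, to higher, and of no other member. Without library 3 of both groups the list counts were 5, 2, 10 and 1, in the same order. Leaving out 1 library gave 2 to 5 higher and 1 to 3 lower transporters, 3 to 12 higher targets and 0 to 1 higher IP3 receptor genes, with the upper numbers reached without retinoic acid library 3. Changes of sign occurred for genes near 0 that were not called: Car5b ran from −0.43 to 0.092 (without vehicle library 2), Car14 from −0.032 (without vehicle library 3) to 0.17 and Car15 from −0.35 to 0.063 (without vehicle library 2) on the log2 scale with 1 library left out. With no filter on low counts Car1 had an adjusted p of 3.25e-47, but the prior degrees of freedom of that fit were infinite, so a gene had no spread of its own in the test, and limma-voom called Car1 (adjusted p = 0.0234) while DESeq2 did not (0.464). Depth limits Car4, Car5b and Car7, which had at most 31 counts in a library.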
